A study of Mus musculus with 2 samples.

Results

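The insulin-like growth factor (IGF) genes described here are the ligands Igf1 and Igf2, the receptors Igf1r and Igf2r, and the binding protein genes Igfbp2, Igfbp3, Igfbp4, Igfbp5, Igfbp6 and Igfbp7. These 10 genes were taken by name. All 10 had a row in both count tables, among 18309 genes listed in either library (16955 in Ptger4-ON and 17217 in Ptger4-OFF).

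The cells came from co-cultures of fibroblasts and crypts, the glands of the gut lining, from small intestine of C57BL6 mice aged 10 weeks, kept in organoid growth medium. In the Ptger4-ON condition the cultures had DMSO alone and formed spheroids. In the Ptger4-OFF condition the inhibitor ONO-AE3-208, which blocks the prostaglandin receptor EP4 that Ptger4 encodes, was added at 10 µM every second day, and the epithelium formed buds. For each condition, 6 cultures were pooled, dissociated with trypsin/EDTA and made into 1 Drop-seq library, in which droplets label each cell's mRNA with a barcode of its own. With 1 library per condition no p-value was possible, the conditions cannot be told apart from the libraries, and every interval in square brackets is a 95% interval of counting error only.

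IGF1 and IGF2 are secreted growth factors that signal through the IGF1 receptor, a tyrosine kinase that feeds the PI3K, AKT and mTOR pathway and drives growth and survival. The IGF2 receptor does not send that signal: it takes IGF2 up for degradation and carries lysosomal enzymes. The IGF binding proteins hold the ligands outside the cell, which prolongs their life or keeps them from the receptor, and proteases free the ligands again. In the gut, IGF1 is known as a product of mesenchymal cells that promotes growth of the epithelium.

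After filtering, 876 Ptger4-ON and 1560 Ptger4-OFF cells remained, with no cell barcode in common, from 908 and 1599 barcodes holding 7408303 and 9490205 unique molecular identifiers (UMIs, each standing for 1 mRNA molecule). Clusters were built without the 10 genes and without 66 other genes of the pathway. Fibroblast-like clusters, which carried collagens, Sparc and Pdgfra, held 288 and 360 cells with 1756918 and 1839148 UMIs. Epithelial-like clusters, which carried Epcam and keratins, held 588 and 1200 cells with 5533875 and 7603583 UMIs. Levels are UMIs in each 1000000 UMIs of the class (CPM). A gene counted as measured with at least 20 UMIs over the groups compared, and a size of 1.5-fold is the limit used in counts.

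The fibroblast-like cells fell into a cluster led by Grem1, which encodes an antagonist of bone morphogenetic proteins, and a larger one led by Mgp, which encodes matrix Gla protein. The Grem1-type cluster held 50 of 288 fibroblast-like cells in Ptger4-ON (17.4%) and 52 of 360 in Ptger4-OFF (14.4%). The Mgp-type cluster held 212 (73.6%) and 303 (84.2%). Grem1 stood at 5226 and 4804 CPM in the Grem1-type and at 787 and 629 CPM in the Mgp-type cells, so both types carried it. Mgp stood at 244 and 28.7 CPM in the Grem1-type and at 3428 and 3589 CPM in the Mgp-type cells. A further cluster of 26 and 5 cells, with a median of 1114 UMIs per cell, was led by Grem1, Actg2 and Acta2 and was left in the fibroblast-like class but out of both types. Shares of cells describe what trypsin released and the droplets captured.

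Other cell types were looked for among the fibroblast-like cells, since several of them are known sources of IGF binding proteins. The list of 10 leukocyte markers summed to 37.9 and 45.2 CPM in Grem1-type and to 11.8 and 8.18 CPM in Mgp-type cells. Most of it was Lyz2, at 37.9 and 41.1 CPM in Grem1-type and 8.11 and 5.66 CPM in Mgp-type cells, and Ptprc, Cd52, Cd3e and Cd79a were at 0 in both types and both libraries. Of 10 endothelial markers, Pecam1, Cdh5, Tie1, Cldn5 and Emcn were at 0, and the list summed to 4.11 to 13.3 CPM. The pericyte list summed to 97.5 and 65.7 CPM in Grem1-type and to 143 and 102 CPM in Mgp-type cells. Its highest gene in Mgp-type cells was Ndufa4l2, at 121 and 96.3 CPM. In Grem1-type cells it was Kcnj8 in Ptger4-ON (48.8 CPM) and Ndufa4l2 in Ptger4-OFF (49.3 CPM). Rgs5 and Higd1b of the list were at 0 in both types. The smooth muscle list summed to 1517 and 1634 CPM in Grem1-type and to 1240 and 804 CPM in Mgp-type cells, mainly Tagln and Acta2, and Des was at 0 in Grem1-type cells. Cycling markers stood at 591 CPM in the Grem1-type cells of Ptger4-ON and 65.7 CPM in those of Ptger4-OFF, against 523 and 522 CPM in Mgp-type cells. The part of these markers in the results on the IGF genes was not tested.

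Start-site sequences are shown for the 4 binding protein genes that separated the fibroblast types in both libraries, each as the 250 bases before the RefSeq start on the gene's strand (GRCm38.p6, 5′ to 3′). Igfbp4 (chr11:99040994-99041243, plus strand) and Igfbp7 (chr5:77408046-77408295, minus strand) were higher in Grem1-type cells. Igfbp3 (chr11:7213924-7214173, minus strand) and Igfbp6 (chr15:102143936-102144185, plus strand) were higher in Mgp-type cells. Capitals mark matches to the motifs searched.
Igfbp4: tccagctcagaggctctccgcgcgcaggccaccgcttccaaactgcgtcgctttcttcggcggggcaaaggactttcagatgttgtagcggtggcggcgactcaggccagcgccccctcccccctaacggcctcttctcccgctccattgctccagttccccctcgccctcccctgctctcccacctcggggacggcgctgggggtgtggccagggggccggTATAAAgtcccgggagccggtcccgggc
Igfbp7: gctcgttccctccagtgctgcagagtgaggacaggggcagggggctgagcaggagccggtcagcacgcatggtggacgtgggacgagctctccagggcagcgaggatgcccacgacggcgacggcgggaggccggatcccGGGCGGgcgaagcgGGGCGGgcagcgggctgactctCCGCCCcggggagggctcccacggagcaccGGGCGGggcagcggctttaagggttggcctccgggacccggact
Igfbp3: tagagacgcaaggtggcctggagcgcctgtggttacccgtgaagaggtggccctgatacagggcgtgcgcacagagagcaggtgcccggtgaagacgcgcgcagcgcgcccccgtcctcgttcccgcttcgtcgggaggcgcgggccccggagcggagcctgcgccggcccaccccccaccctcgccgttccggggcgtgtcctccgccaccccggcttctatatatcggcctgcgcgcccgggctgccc
Igfbp6: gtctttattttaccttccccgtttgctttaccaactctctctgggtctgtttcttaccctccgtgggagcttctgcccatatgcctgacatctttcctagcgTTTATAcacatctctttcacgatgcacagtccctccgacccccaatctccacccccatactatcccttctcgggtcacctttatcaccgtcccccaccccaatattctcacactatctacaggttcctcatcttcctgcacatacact

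The motifs, 5 in all, were searched on both strands. The TATA box was spelled TATAAA. The GC box, known as the site of SP1, was spelled GGGCGG. The core of the cyclic AMP response element was spelled TGACG, the site of AP-1 was spelled TGANTCA, and the site of TEAD factors was spelled GGAATG. Igfbp4 held 1 TATA box, 28 bases before the start, and Igfbp6 held 1 on the opposite strand, 148 bases before it. Igfbp7 held 4 GC boxes, 110, 96, 74 and 44 bases before the start, which did not overlap. Igfbp3 held no match to these letters. Among 32851 windows of the same length, 12.4% held the TATA box, 32.7% the GC box, 17.8% the TGACG core, 6.75% the AP-1 and 12.6% the TEAD letters. The G and C content was 69.2% for Igfbp4, 74% for Igfbp7, 73.2% for Igfbp3 and 49.6% for Igfbp6, against a median of 52.4% over all windows. A match is a run of letters and not a measured binding site.

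Igf1, the growth factor that the IGF1 receptor binds most tightly, was found almost only in fibroblast-like cells. It had 250 UMIs there in Ptger4-ON (142 CPM [125 to 161]) and 309 in Ptger4-OFF (168 CPM [150 to 188]), in 94 of 288 and 149 of 360 cells. In epithelial-like cells it had 1 UMI among 588 cells and 2 among 1200. The epithelial-like level was 0.127% and 0.157% of the fibroblast-like level. The list of 14 fibroblast markers reached 0.284% and 0.320% of its fibroblast-like level in the epithelial-like cells. Single markers ranged from 0 to 0.802% and from 0.174% to 0.896%. The 1 and 2 UMIs of Igf1 there are too few to set it apart from those levels. Igf1 lies on chromosome 10 (mm10, 87858265 to 87937042), with the antisense gene Igf1os inside it.

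Igf2, the second ligand, an imprinted gene known for growth before birth, was at the edge of detection. It had 5 UMIs in the fibroblast-like and 5 in the epithelial-like cells of Ptger4-ON, and 2 and 4 in those of Ptger4-OFF, never more than 1 in a cell. These 16 UMIs over both libraries leave no ratio that could be read. At this depth the ligand signal that the libraries could resolve was Igf1.

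Igf1r, the signalling receptor, was found in both classes. Its level was 33.6 CPM (59 UMIs) and 26.6 CPM (49 UMIs) in fibroblast-like cells, and 8.49 CPM (47 UMIs) and 8.94 CPM (68 UMIs) in epithelial-like cells. The fibroblast-like level was 3.95-fold [2.65 to 5.93] the epithelial-like level in Ptger4-ON and 2.98-fold [2.02 to 4.36] in Ptger4-OFF. The epithelial-like level was 25.3% and 33.6% of the fibroblast-like level, far above the 0.284% and 0.320% of the fibroblast markers.

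Igf2r, the receptor that clears IGF2 and sorts lysosomal enzymes, stood closer in the 2 classes. It had 157 and 135 UMIs in fibroblast-like cells (89.4 and 73.4 CPM) and 359 and 386 in epithelial-like cells (64.9 and 50.8 CPM). The fibroblast-like level was 1.38-fold [1.13 to 1.67] higher in Ptger4-ON and 1.45-fold [1.18 to 1.76] higher in Ptger4-OFF, under the 1.5-fold limit in each. An antisense gene, Airn, overlaps it, and the sources used here do not say whether strand was used in counting.

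Of the binding proteins, Igfbp3, Igfbp5, Igfbp6 and Igfbp7 were found mostly in fibroblast-like cells, and both classes carried Igfbp4. Igfbp2 had few UMIs, which in Ptger4-OFF lay in both classes. Igfbp7, a weak binder of IGFs that is also found in the matrix, had 1574 and 1313 UMIs in fibroblast-like cells (896 and 714 CPM) and 39 and 19 in epithelial-like cells (7.05 and 2.50 CPM). The epithelial-like level was 0.787% and 0.350% of the fibroblast-like level, inside the range of single fibroblast markers (0 to 0.802% and 0.174% to 0.896%). Igfbp6, which prefers IGF2, had 125 and 199 UMIs in fibroblast-like cells (71.1 and 108 CPM) and 2 and 3 in epithelial-like cells. Igfbp3, the main carrier of IGFs in serum, had 120 and 139 UMIs in fibroblast-like cells (68.3 and 75.6 CPM). It had 12 UMIs in the epithelial-like cells of Ptger4-ON and 0 in those of Ptger4-OFF.

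Igfbp4, a binding protein that blocks IGF action until the protease PAPP-A cleaves it, had 313 and 219 UMIs in fibroblast-like cells (178 and 119 CPM). In epithelial-like cells it had 738 and 826 UMIs (133 and 109 CPM), 74.9% and 91.2% of the fibroblast-like level. Igfbp2, an IGF carrier that favours IGF2, had 28 and 13 UMIs in fibroblast-like cells and 0 and 15 in epithelial-like cells. Igfbp5, which binds IGFs in the matrix, had 28 and 15 in fibroblast-like cells and 1 and 0 in epithelial-like cells. Of 9 genes of the family measured in Ptger4-ON, 7 were at least 1.5-fold higher in fibroblast-like than epithelial-like cells, where 24.0% of all genes were, and of 8 measured in Ptger4-OFF, 6 were, where 24.8% of all genes were. None was lower by that size, against 38.2% and 38.0% of all genes.

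**Figure D1:**
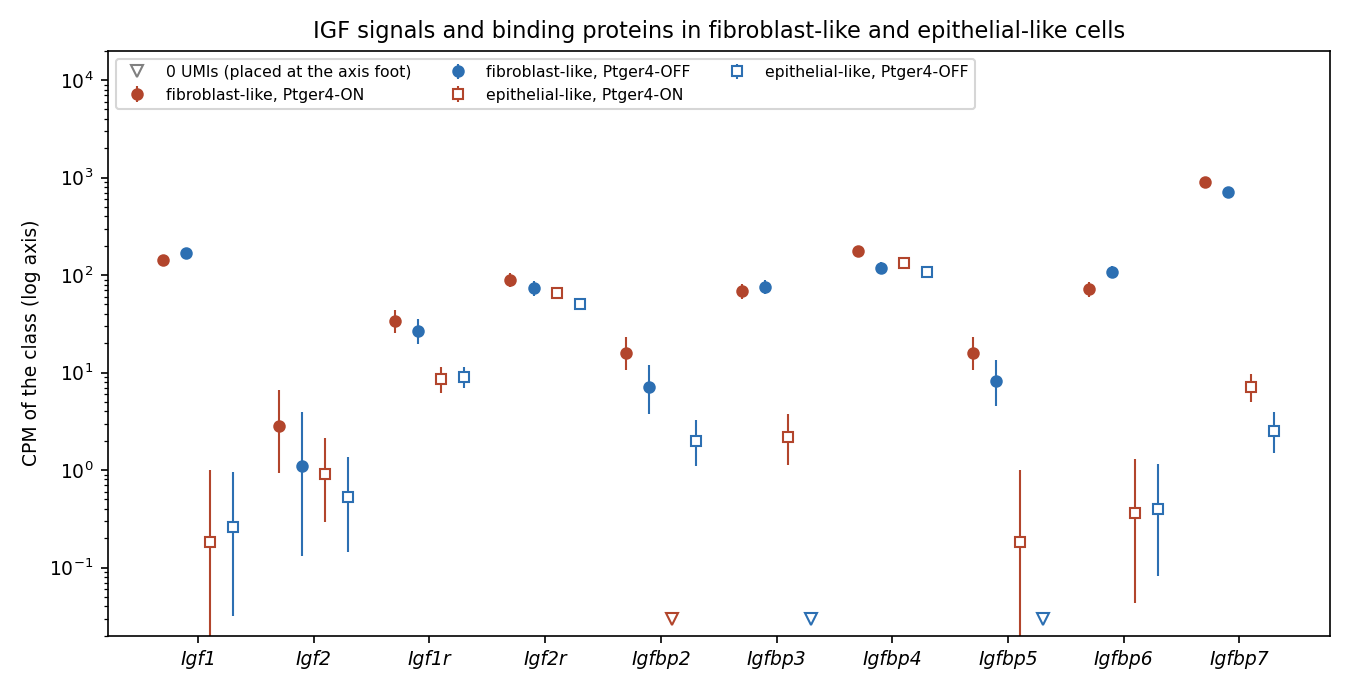
Level of each of the 10 IGF genes in fibroblast-like (filled circles) and epithelial-like cells (open squares) of the Ptger4-ON (red) and Ptger4-OFF (blue) library, in CPM on a log axis with exact Poisson 95% intervals. Igfbp4 and Igf2r lie close together in both classes, and Igf1, Igfbp6 and Igfbp7 lie far apart, with Igfbp7 at 896 and 714 CPM against 7.05 and 2.50 CPM.

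The next comparison set the Grem1-type against the Mgp-type fibroblasts inside each library, which share a culture pool and a preparation. Both types carried the ligand, and they differed most in which binding proteins they carried. Igf1, Igfbp4 and Igfbp7 were higher in Grem1-type cells in both libraries, and Igfbp3 and Igfbp6 were higher in Mgp-type cells in both. In Ptger4-ON, 9 of the 10 genes were measured, 5 were at least 1.5-fold higher in Grem1-type cells, where 11.9% of all genes were, and 3 were lower, where 20.7% of all genes were. In Ptger4-OFF, 7 were measured, 3 were higher (12.3% of all genes) and 3 lower (24.9% of all genes). The median log2 ratio over the measured members was 1.27 and -0.04, against -0.04 and -0.06 over all measured genes.

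Igf1 in Grem1-type cells stood at 268 CPM in Ptger4-ON (99 UMIs in 26 of 50 cells) and 300 CPM in Ptger4-OFF (73 UMIs in 31 of 52 cells). In Mgp-type cells it stood at 111 CPM (150 UMIs in 67 of 212 cells) and 145 CPM (230 UMIs in 117 of 303 cells). The Grem1-type level was 2.42-fold [1.86 to 3.15] and 2.07-fold [1.57 to 2.71] that of Mgp-type cells. Without the cell with the most Igf1 in each group the levels were 226 and 240 CPM against 105 and 138 CPM. Since Mgp-type cells were more numerous, they held 150 of the 250 and 230 of the 309 fibroblast-like Igf1 UMIs. Grem1-type cells thus carried more Igf1 for their RNA content, and Mgp-type cells carried more of it in sum.

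The receptors did not separate the types in the same way. Igf1r stood at 24.4 and 24.6 CPM in Grem1-type cells (9 and 6 UMIs) and at 36.9 and 27.1 CPM in Mgp-type cells (50 and 43 UMIs). The Mgp-type level was 1.51-fold [0.736 to 3.50] and 1.10-fold [0.466 to 3.16] higher, with intervals that hold both directions. Igf2r stood at 81.3 and 41.1 CPM in Grem1-type cells (30 and 10 UMIs) and at 92.2 and 78.7 CPM in Mgp-type cells (125 UMIs in each). Its Mgp-type level was 1.13-fold [0.756 to 1.75] higher in Ptger4-ON and 1.92-fold [1.01 to 4.09] higher in Ptger4-OFF, the latter on 10 UMIs.

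Igfbp4 gave a wide gap toward the Grem1 side. It stood at 526 CPM [454 to 605] in Grem1-type cells of Ptger4-ON and 382 CPM [308 to 468] in those of Ptger4-OFF. In Mgp-type cells it stood at 81.9 CPM [67.3 to 98.6] and 77.4 CPM [64.3 to 92.4]. The ratio was 6.42 [5.06 to 8.18] and 4.93 [3.73 to 6.51]. The transcript was spread unevenly among Grem1-type cells: 194 UMIs lay in 18 of 50 cells, 43 of them in a single cell, and 93 UMIs lay in 24 of 52 cells, with at most 22 in a cell. Without the top cell the Grem1-type level was 418 and 297 CPM, still above the Mgp-type level of 73.0 CPM in each library.

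Within the Grem1-type cluster, the cells with an Igfbp4 UMI were compared with those without, as a description of the same cells. Grem1 stood at 6293 and 6444 CPM in the cells with Igfbp4, and at 4496 and 3046 CPM in those without. Igf1 stood at 333 and 333 CPM against 224 and 264 CPM, with counting intervals that overlapped in each library. Igfbp7 stood at 1733 and 1778 CPM against 1643 and 1583 CPM. The cells with Igfbp4 were deeper (median 6490.5 and 5364 UMIs against 5401.5 and 4042), and depth helps a gene to be seen. Of the 90 Mgp UMIs in the Grem1-type cells of Ptger4-ON, 84 lay in the 18 cells with Igfbp4. Ptger4-OFF did not share this, with 2 Mgp UMIs in the cells with Igfbp4 (15.9 CPM) and 5 in those without (42.5 CPM).

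Igfbp7 was also higher in Grem1-type cells, in nearly every cell. It stood at 1680 CPM (620 UMIs in 49 of 50 cells) and 1684 CPM (410 UMIs in 48 of 52 cells), against 695 CPM (943 UMIs in 156 of 212 cells) and 563 CPM (894 UMIs in 227 of 303 cells) in Mgp-type cells. The ratio was 2.42 [2.18 to 2.68] in Ptger4-ON and 2.99 [2.66 to 3.37] in Ptger4-OFF. Igfbp7 ranked among the first 10 genes that marked the Grem1-type cluster although it took no part in the clustering. The gene Polr2b overlaps it on the opposite strand.

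Igfbp6 and Igfbp3 lay on the Mgp side. Igfbp6 had 2 and 3 UMIs in Grem1-type cells (5.42 and 12.3 CPM) and 122 and 196 in Mgp-type cells (90.0 and 123 CPM). The Mgp-type level was 16.6-fold [4.50 to 139] and 10.0-fold [3.38 to 49.0] higher. Igfbp6 was spread over the Mgp-type cells, with UMIs in 68 of 212 and 116 of 303 cells and at most 5 and 9 in a cell. Igfbp3 had 5 and 6 UMIs in Grem1-type cells (13.5 and 24.6 CPM) and 115 and 133 in Mgp-type cells (84.8 and 83.7 CPM). Its Mgp-type level was 6.26-fold [2.61 to 19.6] and 3.40-fold [1.52 to 9.43] higher.

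Igfbp2 and Igfbp5, which lie 5457 bases apart on chromosome 1, had few UMIs in few cells. Igfbp2 had 16 UMIs in Grem1-type and 12 in Mgp-type cells of Ptger4-ON, a ratio of 4.90 [2.17 to 11.3], but 10 of the 16 lay in a single cell. Without that cell its Grem1-type level was 16.9 CPM in place of 43.3 CPM. Igfbp5 had 12 UMIs in 4 Grem1-type cells and 16 in Mgp-type cells, a ratio of 2.76 [1.19 to 6.21], and all 16 lay in a single cell. In Ptger4-OFF neither had 20 UMIs in all, with 5 against 8 UMIs for Igfbp2 and 3 against 12 for Igfbp5. The interval treats UMIs as independent, which UMIs of a single cell are not.

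A different definition of the types narrowed the gaps. Where each fibroblast-like cell was typed from its own Grem1 and Mgp UMIs, without clusters, the ratio of Grem1-type to Mgp-type was 3.48 and 2.35 for Igfbp4, 1.33 and 1.43 for Igf1, and 1.55 and 1.44 for Igfbp7. For Igfbp6 it was 0.428 and 0.680, and for Igfbp3 0.761 and 0.554. The direction of these 5 genes was the same in each library, and 5 and 3 members were past 1.5-fold in place of 8 and 6.

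**Figure D2:**
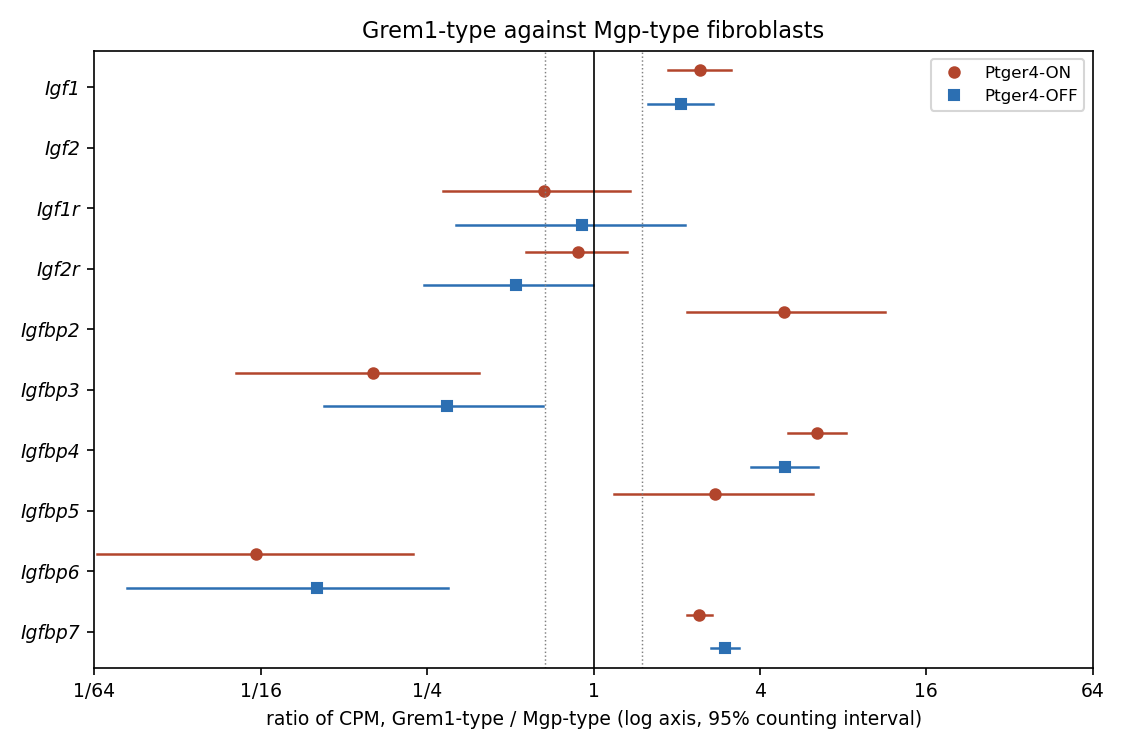
Ratio of the CPM level in Grem1-type to that in Mgp-type fibroblasts for each measured IGF gene, on a log axis with exact conditional 95% counting intervals, in Ptger4-ON (red circles) and Ptger4-OFF (blue squares); dotted lines mark 1.5-fold and genes under 20 UMIs have no point. Igf1, Igfbp4 and Igfbp7 lie right of 1 and Igfbp3 and Igfbp6 lie left of 1 in both libraries.

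Shares of cells were compared after each cell was thinned to 1000 UMIs, which removes the difference in depth. Thinning left 49 and 50 Grem1-type, 195 and 294 Mgp-type, and 530 and 1153 epithelial-like cells. Igfbp7 was seen in 73.5% [58.9 to 85.1] and 70.0% [55.4 to 82.1] of Grem1-type cells, and in 37.4% [30.6 to 44.6] and 35.4% [29.9 to 41.1] of Mgp-type cells. It was seen in 0.943% and 0.173% of epithelial-like cells, and whether those UMIs were carried over from fibroblasts was not tested. Before thinning, the shares were 98% and 92.3% of Grem1-type and 73.6% and 74.9% of Mgp-type cells.

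Igf1 was seen in 16.3% [7.32 to 29.7] and 26.0% [14.6 to 40.3] of thinned Grem1-type cells and in 9.23% [5.56 to 14.2] and 12.6% [9.02 to 16.9] of Mgp-type cells, with intervals that overlapped. Igfbp4 was seen in 22.4% [11.8 to 36.6] and 24.0% [13.1 to 38.2] of Grem1-type, 10.8% [6.79 to 15.99] and 7.48% [4.75 to 11.1] of Mgp-type, and 11.1% and 8.93% of epithelial-like cells. The intervals of the share for Igfbp4 overlapped between the types in Ptger4-ON and did not in Ptger4-OFF. Igfbp6 was seen in 0 of 49 and 0 of 50 Grem1-type cells, which allows a share of cells with a UMI at this depth of up to 6.12% and 6.00% (3 cells of the total; the exact intervals reach 7.25% and 7.11%) and sets no limit on expression. It was seen in 11.8% [7.63 to 17.2] and 12.2% [8.73 to 16.5] of Mgp-type cells. Of the thinned Grem1-type cells, 11 of 49 and 8 of 50 showed neither Igf1 nor any of the binding protein genes, against 84 of 195 and 127 of 294 Mgp-type cells.

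**Figure D3:**
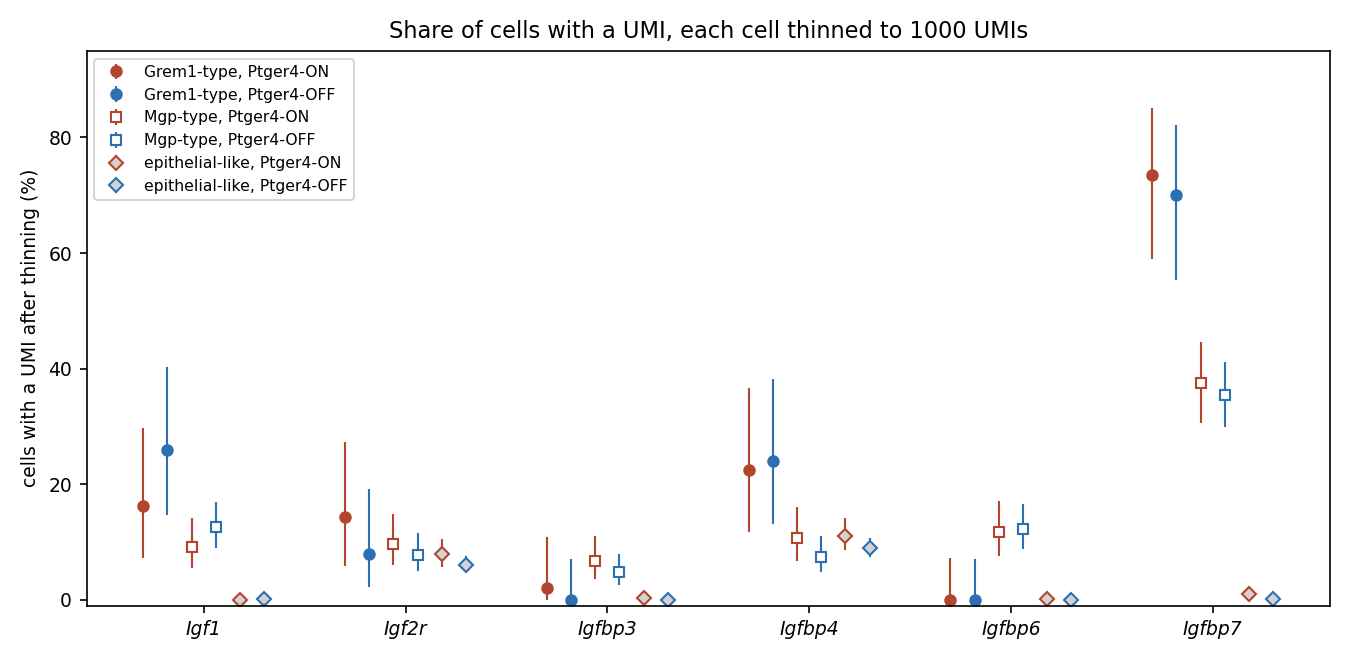
Share of cells with at least 1 UMI of 6 IGF genes after each cell was thinned to 1000 UMIs, in Grem1-type (filled circles), Mgp-type (open squares) and epithelial-like cells (grey diamonds) of Ptger4-ON (red outline or fill) and Ptger4-OFF (blue), with exact Clopper-Pearson 95% intervals. Igfbp7 reached 73.5% and 70.0% of Grem1-type cells, and Igfbp6 was seen in Mgp-type cells at 11.8% and 12.2% and in no thinned Grem1-type cell.

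The comparison of Ptger4-OFF with Ptger4-ON in fibroblast-like cells asked how the family stood with the EP4 receptor blocked. Most differences were small. Of 9 measured genes, 1 was at least 1.5-fold higher in Ptger4-OFF, where 6.73% of all genes were, and 2 were lower, where 7.64% of all genes were. The median log2 ratio of the 9 genes was -0.33, against 0.02 over all measured genes. The Grem1-type cluster held 21.0% of fibroblast-like UMIs in Ptger4-ON and 13.2% in Ptger4-OFF, and the Mgp-type cluster 77.2% and 86.4%. Its part in the class values was not tested, and the values inside each type are given beside them.

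Igfbp6 was the gene past the limit upward. It stood at 71.1 CPM [59.2 to 84.8] in Ptger4-ON and 108 CPM [93.7 to 124] in Ptger4-OFF, a ratio of 1.52 [1.21 to 1.92] that ranged from 1.43 to 1.55 over the alternative settings and so passed the limit in only some of them. Inside the Mgp-type cells, which held nearly all of it, it stood at 90.0 and 123 CPM, a ratio of 1.37 [1.09 to 1.73]. Igf1 stood at 142 and 168 CPM, a ratio of 1.18 [0.996 to 1.40]. Inside the types its ratio was 1.31 [1.06 to 1.62] in Mgp-type and 1.12 [0.814 to 1.53] in Grem1-type cells. Igf1 was thus as high or higher in the inhibited cultures, and where each cell was given equal weight its class ratio was 1.64.

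Igfbp4 was lower in Ptger4-OFF fibroblast-like cells, 119 against 178 CPM, a ratio of 0.668 [0.560 to 0.797] that stops just short of 1.5-fold and ranged from 0.662 to 0.679 over the settings. In Ptger4-ON 48.6% of its UMIs lay in 5 cells, and in Ptger4-OFF 24.2%. The share of cells with a UMI was alike, 28.1% in Ptger4-ON and 28.3% in Ptger4-OFF. Without the top cell of each library the levels were 154 and 107 CPM. Inside the types the Igfbp4 ratio was 0.727 [0.561 to 0.935] in Grem1-type and 0.946 [0.726 to 1.23] in Mgp-type cells. In Grem1-type cells 5 cells held 78.4% of its UMIs in Ptger4-ON and 53.8% in Ptger4-OFF. Igfbp7 stood at 896 and 714 CPM, a ratio of 0.797 [0.740 to 0.858]. Inside the types its ratio was 1.00 [0.882 to 1.14] in Grem1-type cells and 0.809 [0.738 to 0.888] in Mgp-type cells. Whether the types differed from each other in these ratios was not tested, as there is 1 library of each condition.

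Both genes past the limit downward rested on few cells. Igfbp2 had 28 UMIs in 12 of 288 cells and 13 in 9 of 360, a ratio of 0.444 [0.211 to 0.885], and 10 of the 28 lay in a single cell. Igfbp5 had 28 UMIs in 5 cells and 15 in 3 cells, a ratio of 0.512 [0.254 to 0.991], and 16 of the 28 lay in a single cell. Without the top cell of each library the levels were 10.3 and 5.47 CPM for Igfbp2 and 6.87 and 3.27 CPM for Igfbp5.

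Igfbp3 and the receptors stayed within 1.5-fold. Igfbp3 stood at 68.3 and 75.6 CPM, a ratio of 1.11 [0.861 to 1.42], and inside the Mgp-type cells at 84.8 and 83.7 CPM, a ratio of 0.987 [0.763 to 1.28]. Igf1r had a ratio of 0.793 [0.532 to 1.18] and Igf2r of 0.821 [0.648 to 1.04] in fibroblast-like cells. In Mgp-type cells 9 members were measured, 0 were higher by 1.5-fold (7.29% of all genes) and 2 lower (8.13% of all genes), which were Igfbp2 and Igfbp5 on 20 and 28 UMIs. In Grem1-type cells 5 were measured, 0 were higher (12.6% of all genes) and 2 lower (14.4% of all genes). These were Igf2r, with 30 and 10 UMIs and a ratio of 0.505 [0.220 to 1.06], and Igfbp2, with 16 and 5 UMIs and a ratio of 0.474 [0.136 to 1.35].

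**Figure D4:**
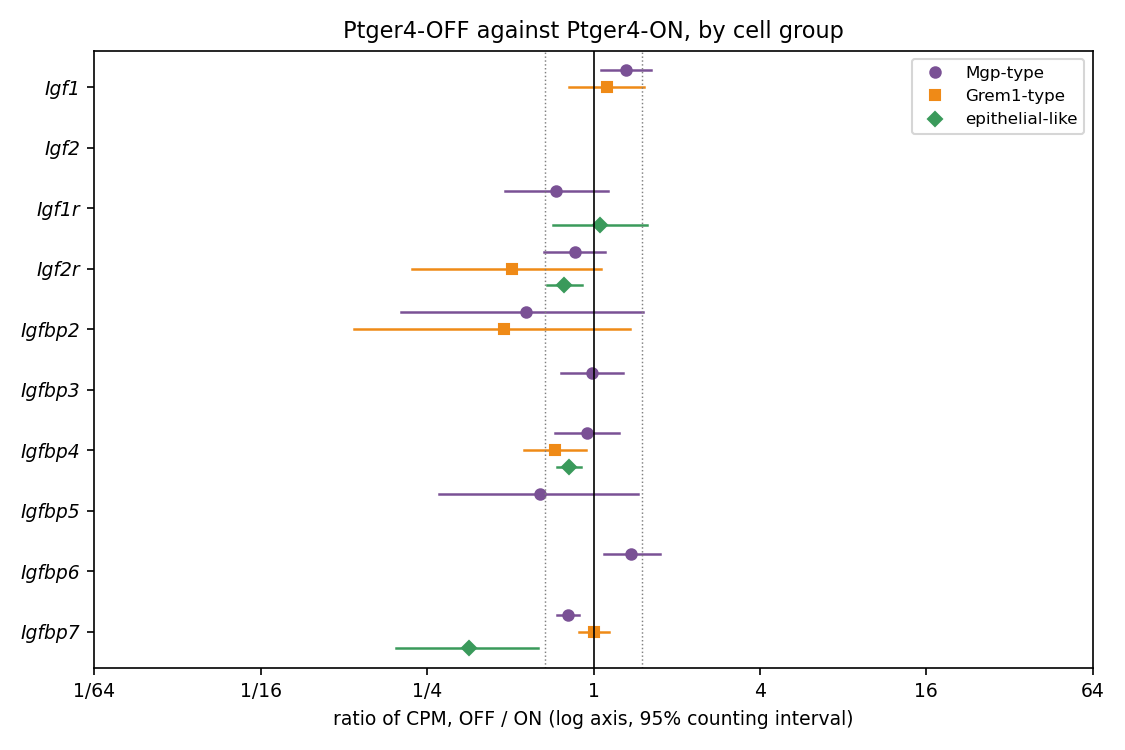
Ratio of the CPM level in Ptger4-OFF to that in Ptger4-ON for each measured IGF gene in Mgp-type fibroblasts (purple circles), Grem1-type fibroblasts (orange squares) and epithelial-like cells (green diamonds), on a log axis with exact conditional 95% counting intervals; dotted lines mark 1.5-fold. Most points lie between the dotted lines, and Igfbp7 in epithelial-like cells lies left of them at 0.355.

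The same comparison in epithelial-like cells covered spheroid against budding epithelium. Of 4 measured genes, 0 were at least 1.5-fold higher in Ptger4-OFF, where 7.41% of all genes were, and 1 was lower, where 10.6% of all genes were. The median log2 ratio of the 4 was -0.32, against -0.04 over all measured genes. Igf1r, the receptor through which fibroblast IGF1 is known to act on epithelium, stood at 8.49 CPM [6.24 to 11.3] and 8.94 CPM [6.94 to 11.3], a ratio of 1.05 [0.715 to 1.56]. Igf2r stood at 64.9 and 50.8 CPM, a ratio of 0.783 [0.676 to 0.906], and Igfbp4 at 133 and 109 CPM, a ratio of 0.815 [0.737 to 0.901]. Both were lower by less than 1.5-fold.

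Igfbp7 was the gene past the limit, at 7.05 and 2.50 CPM, a ratio of 0.355 [0.194 to 0.629] on 39 and 19 UMIs. Of the 39, 16 lay in a single cell and 29 in 7 cells of the cluster led by Clu and Msln. Without the top cell of each library the levels were 4.16 and 2.11 CPM. Fibroblast markers in the epithelial-like cells summed to 102 and 114 CPM. Relative to its fibroblast-like level, Igfbp7 over the whole class lay within the range of single markers. In Ptger4-ON it was at 0.787%, near the highest marker (0.802%) and above the list (0.284%). In the Clu and Msln cluster alone Igfbp7 stood at 15.7 and 1.46 CPM, a ratio of 0.0929 [0.0023 to 0.560]. The marker list there was at 0.299% and 0.292% of its fibroblast-like level. Whether these Igfbp7 UMIs were carried over from fibroblasts was not tested.

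Epithelial states were then compared by cluster. Clu, Msln and other fetal-like or regenerative markers defined a cluster of 179 cells in Ptger4-ON and 73 in Ptger4-OFF. Cenpf and Top2a defined cycling cells (148 and 351), and Slfn9 and Dtl, beside replication genes such as Mcm3, defined a cluster of 141 and 397. Ndrg1, Selenbp1 and Nrn1 defined one of 36 and 221. Paneth- and goblet-like cells, with Defa17, Lyz1 and Muc2, numbered 68 and 66, enterocyte-like cells, with Apoa1 and Fabp1, 15 and 75, and enteroendocrine-like cells, with Chgb and Gip, 1 and 17.

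Igfbp4 varied over these states, here the clusters with at least 20 cells. In Ptger4-OFF it stood at 151 CPM in the Slfn9 and Dtl cluster (254 UMIs), 149 CPM in the Clu and Msln cluster (102 UMIs), 112 CPM in Paneth- and goblet-like cells (51 UMIs) and 111 CPM in cycling cells (324 UMIs). It stood at 71.9 CPM in the Ndrg1 and Nrn1 cluster (87 UMIs) and 6.80 CPM in enterocyte-like cells (4 UMIs). Neighbours among the highest 4 levels did not differ beyond counting error, but the first and the fourth had intervals that did not overlap (133 to 171 and 99.2 to 124 CPM). The step from cycling cells to the Ndrg1 and Nrn1 cluster was 1.54-fold [1.22 to 1.98], and the step from there to enterocyte-like cells was 10.6-fold [3.98 to 39.6]. Cells with enterocyte genes thus had little Igfbp4, and the other states had it in plenty.

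In Ptger4-ON the order of Igfbp4 was alike at its ends. The Slfn9 and Dtl cluster stood at 184 CPM (140 UMIs), the cycling cluster at 148 CPM (286 UMIs), the Clu and Msln cluster at 132 CPM (243 UMIs) and Paneth- and goblet-like cells at 93.98 CPM (58 UMIs). The Ndrg1 and Nrn1 cluster stood at 53.1 CPM (10 UMIs). The 15 enterocyte-like cells held 0 Igfbp4 UMIs among 180479, where the floor of 3 counts is 16.6 CPM and the exact interval reaches 20.4 CPM. Inside the clusters, the ratio of Ptger4-OFF to Ptger4-ON was 1.13 [0.888 to 1.43] in the Clu and Msln cluster, 0.751 [0.639 to 0.884] in cycling cells and 0.821 [0.665 to 1.016] in the Slfn9 and Dtl cluster. The clusters did not show 1 common shift, and whether they differed was not tested.

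Igf2r was flatter across the states than Igfbp4, and Igf1r had few UMIs to compare. Igf1r was highest in the Slfn9 and Dtl cluster of Ptger4-OFF (14.3 CPM, 24 UMIs), followed by cycling cells (9.94 CPM, 29 UMIs). In Ptger4-ON cycling cells came first (11.4 CPM, 22 UMIs), followed by the Slfn9 and Dtl cluster (9.20 CPM, 7 UMIs). Neighbours in these orders did not differ beyond counting error. No Igf1r UMI was seen in the 15 and 75 enterocyte-like cells, among 180479 and 588243 UMIs, with intervals that reach 20.4 and 6.27 CPM. In Ptger4-OFF the latter lies under the intervals of the Slfn9 and Dtl cluster (9.14 to 21.2 CPM) and of cycling cells (6.65 to 14.3 CPM). Igf2r lay between 53.1 and 67.3 CPM in the 5 Ptger4-ON clusters with at least 20 cells, and between 30.7 and 62.8 CPM in the 6 such clusters of Ptger4-OFF. The lowest of these was the Paneth- and goblet-like cluster of Ptger4-OFF, where Igf2r stood at 30.7 CPM (14 UMIs) against 66.4 CPM (41 UMIs) in Ptger4-ON, a ratio of 0.462 [0.233 to 0.865].

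Igfbp2 and Igfbp3 had few epithelial UMIs, most of them in 1 state of 1 library. Of the 15 Igfbp2 UMIs in epithelial-like cells of Ptger4-OFF, 14 lay in 4 of the 17 enteroendocrine-like cells, where its level was 225 CPM [123 to 377]. Ptger4-ON had 0 UMIs of Igfbp2 in 588 epithelial-like cells, but only 1 enteroendocrine-like cell, so the state could not be compared between libraries. Of the 12 Igfbp3 UMIs in Ptger4-ON, 9 lay in 8 of the 179 cells of the Clu and Msln cluster (4.88 CPM [2.23 to 9.27]). Ptger4-OFF had 0 in 1200 epithelial-like cells, of which 73 were in that cluster. Inside the cluster the interval of the ratio, 0 to 1.36, holds no change. The fibroblast marker list stood at 107 and 104 CPM in the Clu and Msln cluster of the 2 libraries, 0.299% and 0.292% of its fibroblast-like level. Over all epithelial-like cells of Ptger4-ON, Igfbp3 stood at 3.17% of its fibroblast-like level, where single markers reached 0.802%. The source of these Igfbp3 UMIs was not tested.

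**Figure D5:**
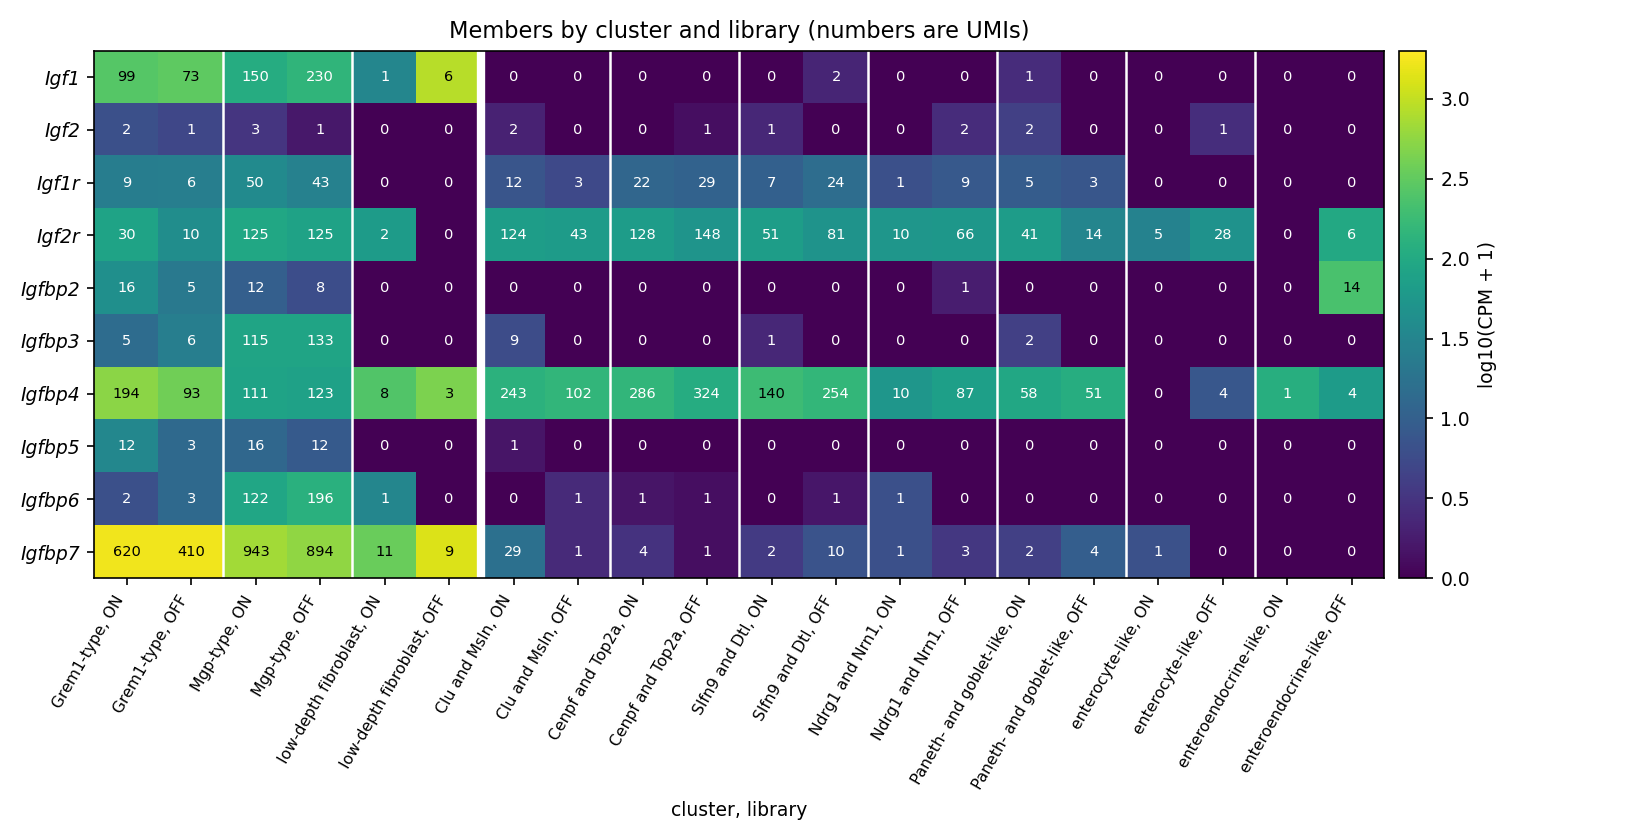
Level of each IGF gene in every cluster of each library, coloured by log10(CPM + 1), with the number of UMIs printed in each cell; fibroblast-like clusters stand left of the wide white line and epithelial-like clusters right of it. Igfbp4 and Igf2r fill both sides, Igf1, Igfbp6 and Igfbp7 fill the left, and Igfbp2 shows 14 UMIs in enteroendocrine-like cells of Ptger4-OFF.

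Around the family, 66 other genes of the pathway were followed in 4 lists: receptors and adaptors, the PI3K, AKT and FOXO steps, the proteases of binding proteins with their inhibitors, and other partners. In fibroblast-like cells 51 were measured, 2 were at least 1.5-fold higher in Ptger4-OFF (6.73% of all genes) and 4 lower (7.64% of all genes), with a median log2 ratio of -0.07. These counts are near or under those shares. Sesn3, a FOXO target that restrains mTOR, stood at 10.8 and 23.9 CPM, a ratio of 2.21 [1.27 to 4.01]. Grb14, an adaptor that dampens insulin receptor signalling, stood at 21.6 and 34.8 CPM, a ratio of 1.61 [1.06 to 2.47]. Mmp9, a gelatinase able to cleave binding proteins, stood at 67.7 and 21.2 CPM, 3.19-fold [2.21 to 4.71] higher in Ptger4-ON. Of its 119 UMIs there, 54 lay in a single cell, and without the top cell of each library the levels were 37.3 and 15.3 CPM. The downstream kinases and FOXO factors gave 1 of 19 genes past the limit.

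In epithelial-like cells 45 of the 66 were measured, 6 were higher in Ptger4-OFF (7.41% of all genes) and 4 lower (10.6% of all genes), the latter near that share. Irs2, an adaptor that links the IGF1 and insulin receptors to PI3K, stood at 13.9 and 20.9 CPM, a ratio of 1.503 [1.14 to 1.999]. Ghr, the growth hormone receptor, stood at 21.9 and 34.2 CPM, a ratio of 1.56 [1.26 to 1.96]. Ctsd, a lysosomal protease that the IGF2 receptor sorts, stood at 227 and 146 CPM, 1.56-fold [1.44 to 1.69] higher in Ptger4-ON. None of 20 measured genes of the PI3K, AKT and FOXO list was past the limit.

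Of the 4 lists, the proteases had the widest median gap between cell classes (log2 5.30 and 6.09). Of 14 measured in Ptger4-ON, 12 were at least 1.5-fold higher in fibroblast-like than in epithelial-like cells (24.0% of all genes), and of 12 in Ptger4-OFF, 11 were (24.8% of all genes). Between the fibroblast types they went both ways. Mmp3, stromelysin, stood at 485 CPM in Grem1-type and 91.3 CPM in Mgp-type cells of Ptger4-OFF, a ratio of 5.31 [4.13 to 6.82], but its ratio in Ptger4-ON was 0.993 [0.746 to 1.30]. Mmp9 was 5.13-fold [2.28 to 14.3] higher in Mgp-type cells of Ptger4-ON, at 16.3 and 83.3 CPM, but its ratio in Ptger4-OFF was 1.19 [0.406 to 2.87]. The same single cell held 54 of the 113 Mgp-type UMIs of Mmp9, and without it the level was 43.9 CPM. Ctsd lay on the Grem1 side in both, at 927 and 489 CPM in Ptger4-ON, a ratio of 1.90 [1.66 to 2.16], and with a ratio of 1.53 [1.29 to 1.80] in Ptger4-OFF. Grb10, an imprinted adaptor that inhibits the IGF1 and insulin receptors, stood at 53.4 and 148 CPM in Ptger4-OFF, 2.77-fold [1.59 to 5.28] higher in Mgp-type cells, and its ratio of Grem1-type to Mgp-type in Ptger4-ON was 0.757 [0.507 to 1.10]. Over all 4 lists, 4 of 44 measured genes were higher and 14 lower in Grem1-type cells of Ptger4-ON (11.9% and 20.7% of all genes), and 6 and 15 of 45 in Ptger4-OFF (12.3% and 24.9% of all genes). All genes leaned to lower too, but less. The median log2 ratio was -0.295 and -0.259 over the measured genes of the lists, against -0.042 and -0.064 over all measured genes.

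Many of the other genes named by the rule rested on few UMIs. Ide had more, 38 in Grem1-type and 86 in Mgp-type cells of Ptger4-ON, as did Adamts1, with 56 and 237 in Ptger4-OFF. In Ptger4-ON, Stc2, an inhibitor of PAPP-A, had 10 UMIs in Grem1-type and 22 in Mgp-type cells, a ratio of 1.67 [0.706 to 3.68], and in Ptger4-OFF 5 and 19, a ratio of 1.72 [0.501 to 4.75]. Ghr (1.64 [0.932 to 2.80]) and Ide, the insulin-degrading enzyme (1.62 [1.08 to 2.40]), were on the Grem1 side in Ptger4-ON. H19, the noncoding RNA imprinted together with Igf2, had 3 UMIs in Grem1-type and 56 in Mgp-type cells of Ptger4-ON, 5.08-fold [1.65 to 25.4] higher in the latter, and 8 and 62 in Ptger4-OFF, a ratio of 0.842 [0.348 to 1.76]. Grb14 and Tsc1, an inhibitor of mTOR, were 4.76-fold [1.22 to 40.9] and 3.18-fold [1.00 to 16.1] higher in Mgp-type cells of Ptger4-ON. They rested on 2 and 3 Grem1-type UMIs. In Ptger4-OFF, Shc1 (1.80 [0.896 to 3.39]) and the protease gene Adamts1 (1.54 [1.13 to 2.07]) were on the Grem1 side. Tsc1, Sesn3 and Stat5a were on the Mgp side there, each on 1 or 2 Grem1-type UMIs and with intervals that hold both directions.

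The genes whose pattern was most like that of a member were taken over 16 points, the clusters with at least 20 cells of each library, by Pearson's r of log2(CPM + 10) among 8576 genes. Igf1 was followed most closely by Ccl7 (r = 0.998), Ccl2 (r = 0.998) and Ctsk (r = 0.996). Igfbp7 was followed by Bdnf (r = 0.994), Tm4sf1 (r = 0.992) and Medag (r = 0.991). Igf1r, which both classes carried, was followed by Spry1 (r = 0.960), Steap1 (r = 0.951) and Tmco1 (r = 0.941). The points share 2 libraries and fall into 2 cell classes, so r mostly reflects the gap between the classes and is a description.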

How the data were processed

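The deposited files were 2 tables of whole-number UMI counts, genes by cell barcodes, 1 per condition. STAR 2.6 and the mouse build mm10 are named in the submitters' processing notes. Counting settings and the use of strand were not stated in the labels, and the counts were used as the authors deposited them.

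Barcodes under 300 genes or with over 20% of UMIs from mitochondrial genes were dropped, as were 6 and 4 doublets marked by Scrublet in Ptger4-ON and Ptger4-OFF. Both libraries were clustered together with scanpy 1.11.5 (scaling to 10000 UMIs, 2000 variable genes, 30 components, 15 neighbours, Leiden resolution 0.5), without the IGF genes and the 66 other pathway genes. Classes were named from lists of marker genes. Leaving the low-depth cluster out of both fibroblast types, and the alternative of counting it in its type, were chosen after seeing the data. UMIs were summed per class and library. Poisson intervals of levels, conditional binomial intervals of ratios and Clopper-Pearson intervals of shares are exact, at 95%, and cover counting error only. The calculation was checked on simulated sums for 9757 genes, 200 of them altered, in the comparison of conditions in fibroblast-like cells. The sums were independent Poisson draws, the model that the ratio intervals assume. The intervals held the true value for 96.3% of the unaltered genes. Such draws have no clumping of UMIs in single cells, so this does not test the intervals on the real counts. A gene at 0 was set against a floor of 3 counts over the group.

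Pathway genes were named where past 1.5-fold with at least 20 CPM in a group, up to 4 in each direction, and 3 genes of like pattern were named for each of 3 members. A gene that this rule names is not reported here. The IGF genes, lists and tests were chosen with earlier results of these data known. Median depth was 4366 and 4161 UMIs per barcode. Barcodes with more than 50000 UMIs held 17.3% and 4.00% of the UMIs. The alternatives tried were other cell filters, barcodes ending in N left out, other class definitions, other UMI minimums, equal weight per cell, TMM scaling (edgeR 4.0.16) and other thinning depths.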

Additional observations from a re-analysis of the deposited data

How the results depend on the processing

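With 1 library per condition, there was no replicate to leave out and no measured spread between cultures. No paired analysis was possible because each condition had a single library. The direction of Igf1, Igfbp3, Igfbp4, Igfbp6 and Igfbp7 between the fibroblast types was the same in both libraries under each alternative that gave a value. Where each library was clustered alone, Ptger4-OFF had no separate Grem1-type cluster, so comparisons that need it gave no value. The causes of the changes below were not tested, except that a higher UMI minimum leaves fewer genes to count.

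The number of IGF genes past 1.5-fold changed as follows. With at least 50 UMIs per gene it was 1 in place of 3 between conditions in fibroblast-like cells, 0 in place of 2 in Mgp-type cells and 0 in place of 2 in Grem1-type cells. With at least 10 UMIs it was 3 in place of 1 in epithelial-like cells and 4 in place of 2 in Grem1-type cells. In Mgp-type cells it was 1 with each library clustered alone, 0 with classes from marker UMIs alone and 1 without barcodes ending in N. In Grem1-type cells it was 1 with equal weight per cell. Between the types, classes from marker UMIs alone gave 5 in place of 8 in Ptger4-ON and 3 in place of 6 in Ptger4-OFF.

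The number of other pathway genes past 1.5-fold in fibroblast-like cells was 6, and was 10 with equal weight per cell and 3 with at least 50 UMIs. In Mgp-type cells it was 7, and was 4 with at least 200 genes per cell, 3 without barcodes ending in N, 11 with equal weight per cell and 3 with at least 50 UMIs. In Grem1-type cells it was 10, and was 6 with at least 50 UMIs. Between the types it was 18 in Ptger4-ON, and was 9 with at least 50 UMIs. In Ptger4-OFF it was 21, and was 8 with classes from marker UMIs alone and 12 with at least 50 UMIs. Igfbp5 between conditions in Mgp-type cells, on 28 UMIs in 3 cells, had a log2 ratio of -0.63 that turned to 0.073 with equal weight per cell. Igfbp4 there had a log2 ratio of -0.08, and 0.57 with each library clustered alone. In that setting Ptger4-OFF had no separate Grem1-type cluster, so its Mgp-type group was a different set of cells. The upper end of the Igfbp4 range in Mgp-type cells below, 1.48, comes from it. Igfbp3 between the types of Ptger4-ON had a log2 ratio of -2.52, and -4.42 with at least 200 genes per cell. Ratios within 1.5-fold that lay on both sides of 1 over the alternatives were those between conditions of Igfbp3 in fibroblast-like (0.992 to 1.26) and Mgp-type cells (0.873 to 1.10), Igf1r in epithelial-like cells (0.857 to 1.13), Igfbp4 in Mgp-type (0.747 to 1.48) and Igfbp7 in Grem1-type cells (0.770 to 1.09), and that of Igf1r between the types in Ptger4-OFF (0.670 to 1.04). Of the shares of cells, 93 moved and 67 stayed, the moves all from another thinning depth or none.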

Other observations

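The small low-depth cluster, with contractile genes such as Actg2 and Acta2 among its leading genes, carried binding proteins too. Igfbp7 had 11 UMIs in its 26 Ptger4-ON cells (346 CPM [173 to 619]) and 9 in its 5 Ptger4-OFF cells (1316 CPM [602 to 2498]). Igfbp4 had 8 and 3 UMIs there (251 and 439 CPM), and Igfbp3 had 0 in both.

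Among Mgp-type cells of Ptger4-ON, those with an Igfbp4 UMI held more Igfbp7 (905 CPM [823 to 994]) than those without (578 CPM [528 to 631]), and more Igfbp3 (135 CPM [105 to 172] against 56.4 CPM [41.7 to 74.6]). In Ptger4-OFF the levels were 599 CPM [535 to 667] and 544 CPM [500 to 591] for Igfbp7, and 88.7 CPM [65.4 to 118] and 81.1 CPM [64.8 to 100.3] for Igfbp3. The cells with Igfbp4 were deeper in both libraries, with a median of 6643.5 and 6598 UMIs against 4230.5 and 4033. Whether the libraries differ in this was not tested.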
